A study of Mus musculus with 8 samples.

Results

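ChiaRed+ cells of homozygous ChiaRed mice (C/C, n = 2 libraries) were compared with the whole EpCAM+CD45- gate of wild-type mice (WT, n = 3), which is 5 of the 8 RNA sequencing libraries of the study. The members were chosen by their genotype labels and by the sorted cells that the design text gives for them, and no measured value was used. ChiaRed is a reporter of Chia1, the gene of acidic mammalian chitinase (AMCase), an enzyme that cuts chitin. All libraries came from lungs of C57BL/6J mice aged 14 weeks, with no treatment in the labels, and EpCAM marks epithelial cells while CD45 marks leukocytes. WT and C/C differed in genotype and in sorting at once, since the WT cells were not selected on Chia1 expression, so the effects of the allele and of the sort cannot be told apart. The other 3 libraries, from heterozygous mice, entered only the estimate of the spread. The labels do not say that libraries of a group came from separate animals, and p-values here reflect how much these libraries vary. By their Xist and Y-linked counts, WT 1 was female and WT 2 and WT 3 were male, so WT did not all come from the same animal. The rest of the spread, as that between the C/C libraries, may be technical.

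The lung epithelium has an airway part, with club and ciliated cells, and an alveolar part, with flat type 1 cells for gas exchange and cuboidal type 2 cells that make surfactant. Type 2 cells load surfactant proteins and lipids into lamellar bodies and draw on the secretory pathway, and so on the chaperones of the endoplasmic reticulum, to do so. Immediate early genes are transcribed within minutes of a stimulus without new protein synthesis. Heat shock factor induces cytosolic chaperones when proteins misfold, and the unfolded protein response does the same for the endoplasmic reticulum.

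Total counts per library were 20232091 to 52319957 in WT and 41950581 to 46478577 in C/C. Mitochondrially encoded genes took 2.90% to 3.31% of counts in WT and 4.92% to 6.67% in C/C. By Xist and Y-linked counts WT 1 was female, WT 2 and WT 3 were male and both C/C libraries were female, which the labels do not give. Of 14906 tested genes, 444 (2.98%) were called at a Benjamini-Hochberg adjusted p under 0.05 by edgeR's quasi-likelihood test, 241 higher in C/C (1.62%) and 203 lower (1.36%). The higher calls were mostly moderate changes of well-expressed genes, with 225 at a mean of 10 CPM or more in the higher group and 70 changed 2-fold or more, and the lower calls held 119 and 107 such genes. The number of calls was 39 without WT 2, 30 without C/C 1, 33 without C/C 2, 281 without WT 3, 178 without the heterozygous library C/+ 2 and 782 without C/+ 3. Over all gene lists, 57 members did not pass the filter on low counts and have no test. The groups did not overlap in any of the 444 called genes, nor in 43.3% of all tested genes. An unadjusted p under 0.05 was found for 22.1% of all tested genes. The Wald test of DESeq2, used as an alternative, called 1410 genes, 639 higher and 771 lower, of the 22726 with a read in any library. That total counts genes before any filter of DESeq2.

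**Figure D1:**
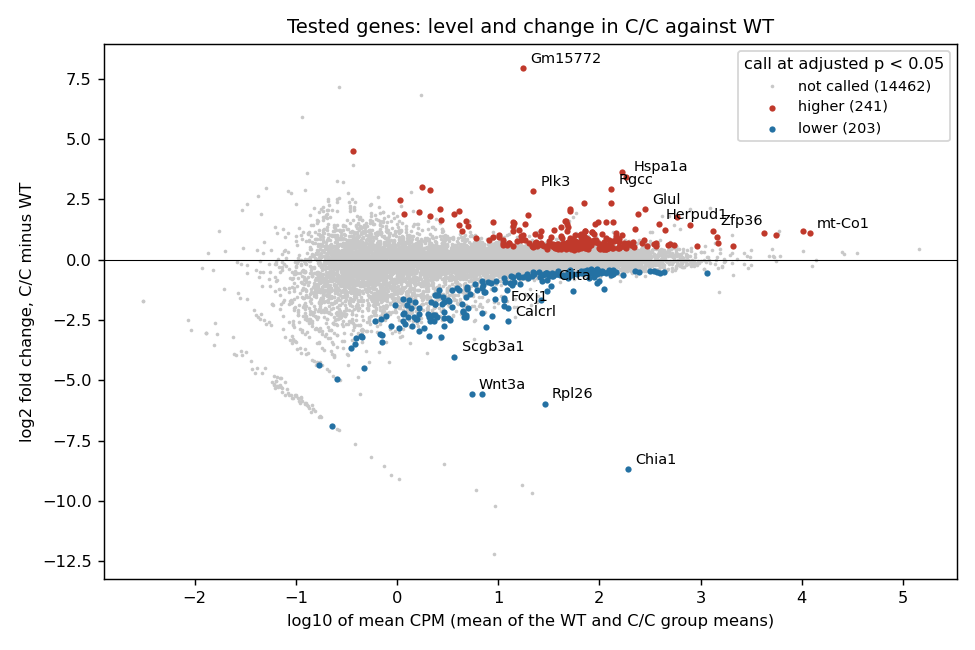
Each point is 1 of the tested genes, with the log10 of its mean CPM on the horizontal axis and its log2 fold change, C/C minus WT, on the vertical axis; red points were called higher (241), blue points lower (203) and grey points were not called. Chia1 stands furthest below 0 among the called genes, and fitted changes of genes with almost no counts in 1 group (grey, lower left) depend on the prior count of the fit.

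Values per library are in CPM, read counts scaled to library size with TMM factors, and stand in the order WT 1, WT 2, WT 3, then C/C 1, C/C 2. Changes are edgeR log2 fold changes, C/C minus WT, with their standard errors (SE). Chia1 (ENSMUSG00000062778, GRCm38 chr3:106113229-106132120, plus strand) stood at 267, 454 and 425 CPM in WT and at 1.45 and 0.365 CPM in C/C (log2 fold change -8.68, SE 0.51, adjusted p = 3.96e-05), and the C/C libraries held 63 and 14 Chia1 reads. The C/C libraries thus held almost no mRNA of the enzyme, whereas the WT libraries held 9571 to 22881 reads. The other 6 tested chitinase family members were not called: Chil1, a chitinase-like protein without enzyme activity, stood at 6467, 5430.3 and 5419 CPM in WT and at 5912 and 6896 CPM in C/C, and its groups overlapped. Chil3, a secreted chitinase-like protein of macrophages, stood at 8.51, 5.74 and 0.353 CPM in WT and at 0.643 and 0.339 CPM in C/C. Of the 43 tested genes within 2 Mb of Chia1, 0 were called by edgeR and 1 by DESeq2, and 8 had an unadjusted p under 0.05. Over all tested genes, edgeR called 2.98%, and 22.1% had an unadjusted p under 0.05.

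Rgcc, a regulator of cyclin-dependent kinase activity named for its response to complement, had the largest increase among the named genes whose call held in every fit. It rose from 24.1, 29.5 and 37.3 CPM in WT to 242 and 219 CPM in C/C (log2 fold change 2.93, SE 0.16, adjusted p = 3.96e-05). Glul, glutamine synthetase, rose from 119.6, 96.6 and 102 CPM in WT to 488 and 422 CPM in C/C (log2 fold change 2.10, SE 0.13, adjusted p = 3.96e-05). Both C/C libraries lay far above all 3 WT libraries for these genes, and the C/C libraries differed little from each other. F3, tissue factor, the cell-surface trigger of coagulation, rose from 10.1, 7.78 and 7.74 CPM in WT to 26 and 35 CPM in C/C (log2 fold change 1.83, SE 0.19, adjusted p = 0.00152). Pim3, a serine/threonine kinase, rose from 39.7, 53.9 and 53.8 CPM in WT to 128 and 161 CPM in C/C (log2 fold change 1.56, SE 0.18, adjusted p = 0.00273). Depp1, a regulator of autophagy, rose from 54.1, 68.1 and 86.3 CPM in WT to 193 and 219.5 CPM in C/C (log2 fold change 1.57, SE 0.20, adjusted p = 0.00554). None of these groups overlapped. Of the 89 called genes chosen by the rule for named genes, 15 were also called whichever of the 8 libraries was left out: Chia1, Rpl26, Rgcc, Glul, F3, Pim3, Plk3, Gem, Sik1, Errfi1, Per1, Nfil3, Cdkn1a, Herpud1 and mt-Rnr1. All 89 kept their direction in each of these fits. Among the 10 genes called higher with the highest CPM, Rnase4, a secreted ribonuclease, rose from 1716, 1651 and 1763 CPM in WT to 2362 and 2678 CPM in C/C (log2 fold change 0.56, SE 0.11, adjusted p = 0.0359). Actb, cytoplasmic beta actin, rose from 1045, 1172 and 1178 CPM in WT to 1915 and 1726 CPM in C/C (log2 fold change 0.69, SE 0.12, adjusted p = 0.0228). Both calls were lost without WT 2 or either C/C library, and that of Rnase4 also without WT 3 or C/+ 2. The call of Rnase4 was lost with an offset for exon length as well.

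**Figure D2:**
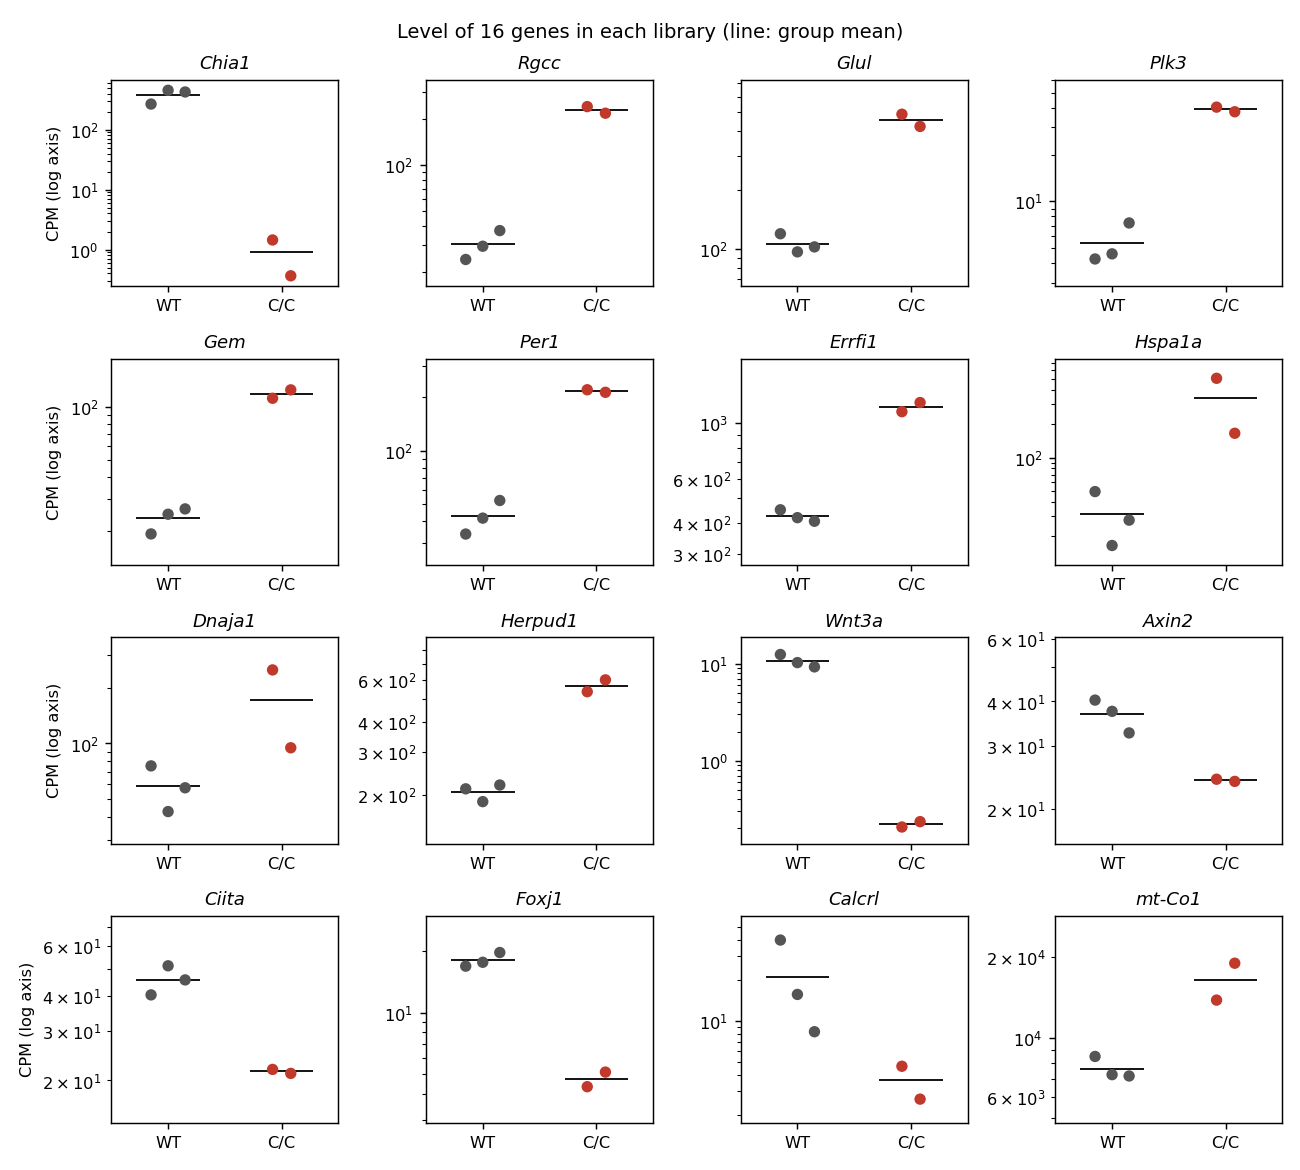
Level in CPM (vertical log axis, scaled for each gene) of 16 genes in the 3 WT libraries (grey) and the 2 C/C libraries (red), with a line at each group's mean. Rgcc, Glul, Plk3, Gem, Per1, Errfi1 and Herpud1 lie above all WT libraries with little spread, while Hspa1a and Dnaja1 differ widely between the 2 C/C libraries.

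Of 31 tested immediate early genes, 11 were called higher and 0 lower, against 1.62% of all tested genes called higher. Their median log2 fold change was 1.21, and that of all tested genes was -0.03. Plk3, a polo-like kinase of the stress response, rose from 4.27, 4.6 and 7.27 CPM in WT to 40.4 and 37.7 CPM in C/C (log2 fold change 2.84, SE 0.22, adjusted p = 0.000229). Gem, a small GTPase that restrains calcium channels, rose from 19.2, 24.8 and 26.5 CPM in WT to 111 and 124 CPM in C/C (log2 fold change 2.33, SE 0.16, adjusted p = 8.17e-05). Sik1, a salt-inducible kinase, rose from 88, 95.2 and 125 CPM in WT to 325 and 439 CPM in C/C (log2 fold change 1.89, SE 0.17, adjusted p = 0.000539). Zfp36, which speeds the decay of mRNAs with AU-rich elements, rose from 546, 757 and 1102 CPM in WT to 1859 and 1831 CPM in C/C (log2 fold change 1.20, SE 0.26, adjusted p = 0.0428). Jund, a subunit of the AP-1 transcription factor, rose from 179, 325 and 301 CPM in WT to 566 and 671 CPM in C/C (log2 fold change 1.21, SE 0.27, adjusted p = 0.045). The C/C libraries lay above all WT libraries in each of the 11 called genes, which also held Fosl1, Fosl2, Klf10, Maff, Nr4a2 and Nr4a3. Several of the best known members were not called, and their WT libraries differed widely. Fos, another AP-1 subunit, stood at 624, 1249 and 2188 CPM in WT and at 3119 and 2311 CPM in C/C (adjusted p = 0.194). Atf3, a stress-induced transcription factor, stood at 63.9, 293 and 534 CPM in WT and at 1637 and 886 CPM in C/C (adjusted p = 0.109). Egr1, a zinc finger factor, at 99.7, 169.7 and 388 CPM in WT and at 819 and 701 CPM in C/C (adjusted p = 0.0704). WT 1 was the lowest library for Fos, Atf3 and Egr1, both C/C libraries lay above WT in all 3, and C/C 2 lay close above WT 3 for Fos. Summed over the list, the WT libraries held 3938 to 10296 CPM and the C/C libraries 14371 to 18086 CPM. The number of called members was 3 without WT 2 or without C/C 1, 4 without C/C 2, 7 without WT 1 or without C/+ 2, and 26 with sex as a covariate.

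Genes of MAP kinase feedback had 4 of 17 tested members called higher, against 1.62% of all tested genes, and 0 lower. Their median log2 fold change was 0.62. Errfi1, an inhibitor that binds the activated EGF receptor, rose from 450.5, 419 and 405 CPM in WT to 1113 and 1211 CPM in C/C (log2 fold change 1.45, SE 0.14, adjusted p = 0.00114), and its call held in every fit. Phlda1, a pleckstrin homology domain protein, rose from 152, 153 and 128 CPM in WT to 226 and 223 CPM in C/C (log2 fold change 0.64, SE 0.14, adjusted p = 0.0431). Dusp5 and Dusp10, phosphatases that inactivate MAP kinases, had log2 fold changes of 1.87 and 1.59 (adjusted p = 0.034 and 0.0368). Dusp10 stood at 2.35, 2.51 and 2.32 CPM in WT and at 9.87 and 4.54 CPM in C/C, so the C/C libraries differed from each other more than the WT libraries did. The count was 1 without WT 1, WT 2, WT 3 or C/C 1, and 2 without C/C 2 or C/+ 2.

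Of 27 tested cytosolic heat shock chaperones, 9 were called higher, against 1.62% of all tested genes, and 0 lower (median log2 fold change 0.63). The promoters of 3 of them are printed because heat shock factor binds inverted repeats of GAA, and the called members can be searched for them. Each sequence is the last 150 bases before a RefSeq transcription start (GRCm38.p6), 5′ to 3′ on the gene's strand, with capitals marking GAA and TTC, or TTC and GAA, with 2 bases of any kind between them.
Hspa1a, chr17:34972157-34972306 (minus strand): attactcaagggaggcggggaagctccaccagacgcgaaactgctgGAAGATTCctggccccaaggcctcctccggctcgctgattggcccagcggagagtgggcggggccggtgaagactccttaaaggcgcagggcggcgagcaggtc
Hspb1, chr5:135887769-135887918 (plus strand): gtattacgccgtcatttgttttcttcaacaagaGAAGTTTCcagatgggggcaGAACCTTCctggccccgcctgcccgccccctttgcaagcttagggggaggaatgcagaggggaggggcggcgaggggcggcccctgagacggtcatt
Dnaja1, chr4:40722318-40722467 (plus strand): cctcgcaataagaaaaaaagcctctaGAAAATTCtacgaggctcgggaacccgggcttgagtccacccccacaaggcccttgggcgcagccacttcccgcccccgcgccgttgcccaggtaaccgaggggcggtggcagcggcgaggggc
Within 250 bases before a start, the pattern, which reads the same on both strands, was found in 5 of the 8 called chaperones that have a promoter in the table, in 5 of 13 that were not called, and in 14.5% of the 27025 genes in the table. A gene with more than 1 start was counted where any of its starts held the pattern. Dnaja1 has other starts in the table, with 0 matches, and only its printed start holds the pattern. A match describes the letters and is not a measured binding site.

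Hspa1a, an inducible HSP70, rose from 49.6, 16.4 and 27.6 CPM in WT to 510.4 and 165 CPM in C/C (log2 fold change 3.43, SE 0.70, adjusted p = 0.0373). Hspa1b, its neighbour on chromosome 17, rose from 50.2, 7.83 and 16.3 CPM in WT to 476 and 137 CPM in C/C (log2 fold change 3.62, SE 0.78, adjusted p = 0.0413). Both C/C libraries lay above WT 1, the highest WT library, and C/C 1 far above C/C 2. The 250 bases before the start of Hspa1a and Hspa1b are identical at 247 positions, and 58.8% of the 50-base stretches of the Hspa1a transcripts also occur in Hspa1b, so reads may have been assigned to either gene. Dnaja1, an HSP40 partner of HSP70, rose from 75.6, 42.7 and 57.5 CPM in WT to 250.4 and 94.8 CPM in C/C (log2 fold change 1.56, SE 0.34, adjusted p = 0.0413). Dnajb1, another HSP40, rose from 52.5, 42.5 and 49.9 CPM in WT to 182 and 86.1 CPM in C/C (log2 fold change 1.47, SE 0.25, adjusted p = 0.0194). Bag3, a co-chaperone that links HSP70 to autophagy, rose from 64.6, 57.9 and 59.6 CPM in WT to 105 and 82.6 CPM in C/C (log2 fold change 0.63, SE 0.13, adjusted p = 0.0367). Hspb1, a small heat shock protein, rose from 23.8, 21.5 and 25.3 CPM in WT to 80.9 and 38.2 CPM in C/C (log2 fold change 1.34, SE 0.28, adjusted p = 0.0385). C/C 1 was higher than C/C 2 in all of these genes. The 18 members not called held constitutive ones and others, among them Hsph1, Dnaja4, Hspd1 and Hspe1. Hspa8, the constitutive HSP70, stood at 336, 133 and 147 CPM in WT and at 492 and 409.6 CPM in C/C. Hsp90ab1, the constitutive HSP90, stood at 994, 908 and 1005 CPM in WT and at 1337 and 1041 CPM in C/C. Hspa8 and Hsp90ab1 lay higher in C/C without overlap but were not called. WT 1 was the highest WT library for Hspa8. The list had 0 calls without WT 2 or without C/C 1, 3 without WT 3 or C/+ 2, 5 without C/C 2 and 14 without WT 1.

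**Figure D3:**
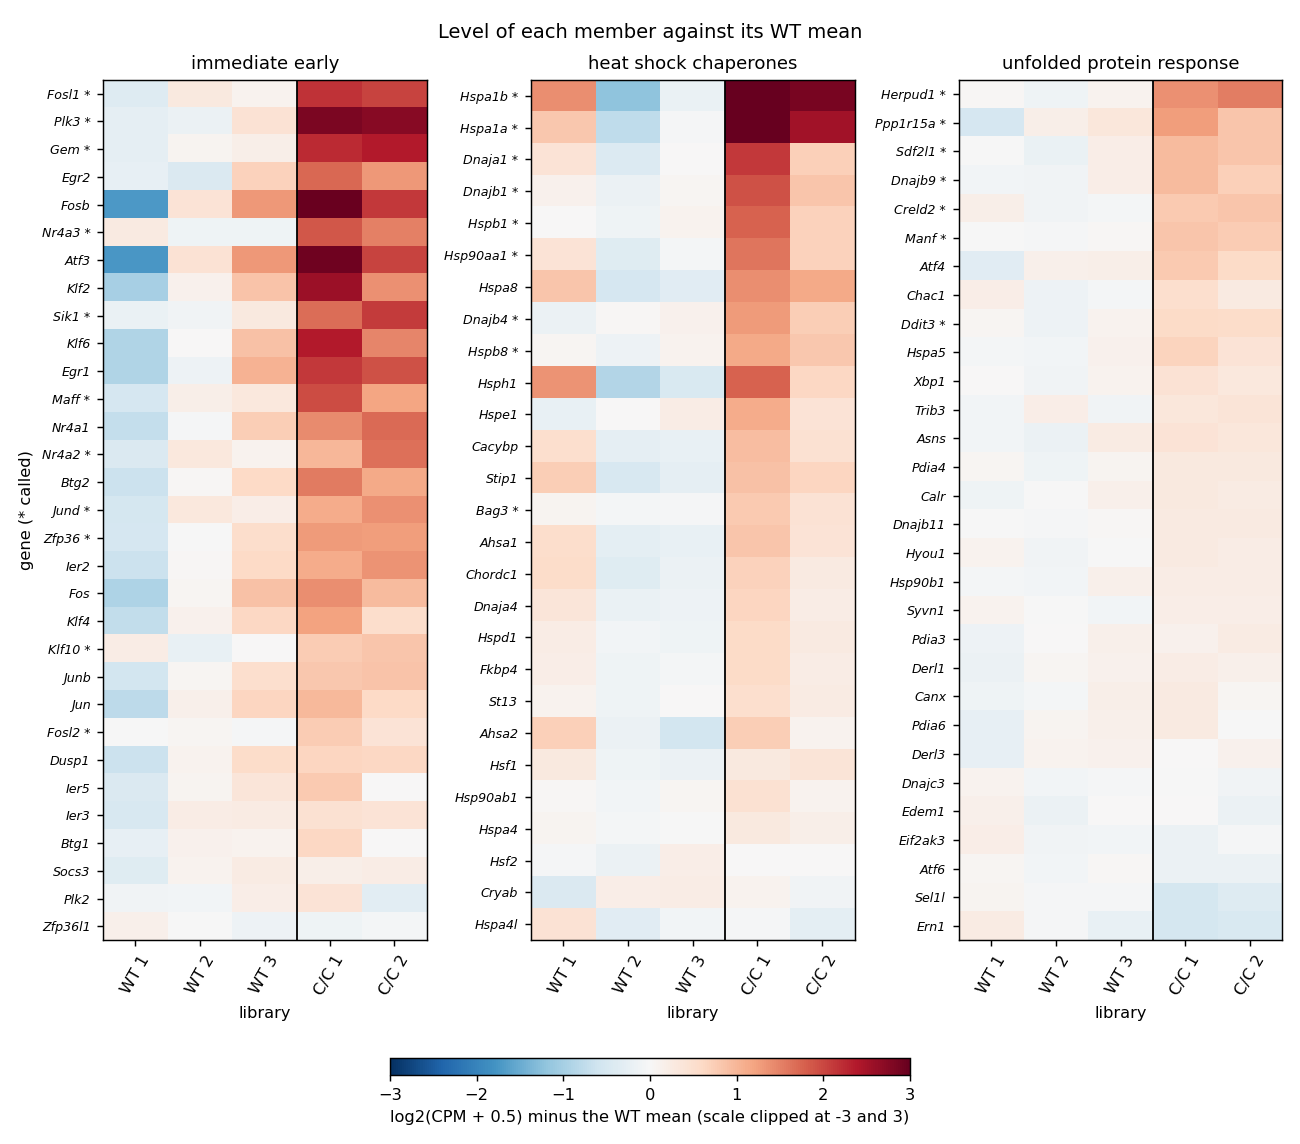
Each row is a tested member of 1 of 3 lists and each column a library; colour gives log2(CPM + 0.5) minus the mean of the 3 WT libraries, and a star marks called genes. Both C/C columns are red for the upper rows, C/C 1 is the darker column for the heat shock list, and WT 1 is blue for Fosb, Atf3 and Egr1 and red for Hspa1b, Hsph1 and Hspa8.

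Of 30 tested genes of the unfolded protein response, 7 were called higher, against 1.62% of all tested genes, and 0 lower. The list median log2 fold change was 0.27. Herpud1, a membrane protein of the degradation machinery of the endoplasmic reticulum, rose from 211, 187 and 219 CPM in WT to 535 and 599 CPM in C/C (log2 fold change 1.46, SE 0.12, adjusted p = 0.000261), and its call held in every fit. Manf, a secreted factor released on loss of calcium from that compartment, rose from 66, 65.6 and 69.1 CPM in WT to 119 and 114 CPM in C/C (log2 fold change 0.80, SE 0.11, adjusted p = 0.00829). Creld2, a stress-induced resident protein, rose from 45, 36.4 and 37.6 CPM in WT to 68.6 and 70.8 CPM in C/C (log2 fold change 0.81, SE 0.11, adjusted p = 0.00858). Dnajb9, a co-chaperone of the main lumenal HSP70, rose from 52.5, 51.7 and 63.4 CPM in WT to 108 and 91.6 CPM in C/C (log2 fold change 0.84, SE 0.19, adjusted p = 0.0442). The C/C libraries did not overlap with WT in any of these. Ppp1r15a, which restarts translation after stress, rose from 76.1, 122 and 136 CPM in WT to 256 and 194 CPM in C/C (log2 fold change 1.02, SE 0.23, adjusted p = 0.0446), and Sdf2l1 and Ddit3 rose as well (0.93 and 0.58 on the log2 scale, adjusted p = 0.0485 and 0.0491). The main lumenal chaperones were not called. Hspa5, the main lumenal HSP70, stood at 441, 435 and 507 CPM in WT and at 731 and 611 CPM in C/C (log2 fold change 0.54, adjusted p = 0.0521). Hsp90b1, the lumenal HSP90, at 505, 500.2 and 584 CPM in WT and at 616 and 618 CPM in C/C. Ern1 and Sel1l, a sensor and a degradation adaptor, had log2 fold changes of -0.51 and -0.46 and were not called (adjusted p = 0.0953 and 0.0644). The list had 1 call without WT 2, C/C 1 or C/C 2, 4 without WT 1, WT 3 or C/+ 2, and 2 with an offset for exon length.

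The endoplasmic reticulum stress element, CCAAT and CCACG with 9 bases of any kind between them, was searched on both strands in the same way. It was found in 1 of the 6 called genes of the list with a promoter in the table, Creld2, in 8 of 20 that were not called, and in 0.13% of all 27025 genes. No other form or spacing was searched, so a gene counted without a match may hold another form. Creld2, called, and Hspa5, not called, are printed because both hold the element, in capitals, in opposite orientations; the format is that of the chaperone promoters.
Creld2, chr15:88819496-88819645 (plus strand): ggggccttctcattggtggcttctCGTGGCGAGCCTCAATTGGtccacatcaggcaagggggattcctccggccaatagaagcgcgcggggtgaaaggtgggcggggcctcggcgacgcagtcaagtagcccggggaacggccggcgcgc
Hspa5, chr2:34771940-34772089 (plus strand): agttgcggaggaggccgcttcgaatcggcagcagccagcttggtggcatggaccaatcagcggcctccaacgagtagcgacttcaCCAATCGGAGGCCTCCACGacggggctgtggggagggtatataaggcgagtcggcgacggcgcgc

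Genes known to be induced by glucocorticoids had 6 of 16 tested members called higher, against 1.62% of all tested genes, and 0 lower. Their median log2 fold change was 0.83. Per1, a repressor of the circadian clock, rose from 33.8, 41.6 and 52.3 CPM in WT to 221 and 214 CPM in C/C (log2 fold change 2.35, SE 0.19, adjusted p = 0.000276). Tsc22d3, the glucocorticoid-induced leucine zipper, rose from 64, 71.6 and 69.3 CPM in WT to 168 and 120.2 CPM in C/C (log2 fold change 1.08, SE 0.16, adjusted p = 0.0129). Cebpd, a transcription factor of the acute phase, rose from 21.6, 25.8 and 22 CPM in WT to 49.3 and 90.7 CPM in C/C (log2 fold change 1.60, SE 0.25, adjusted p = 0.0159). C/C lay above WT without overlap in each, with C/C 2 the higher library for Cebpd and C/C 1 for Tsc22d3. Cdkn1a, the cyclin-dependent kinase inhibitor p21, rose from 48.6, 54.3 and 52.6 CPM in WT to 116 and 115 CPM in C/C (log2 fold change 1.16, SE 0.12, adjusted p = 0.00173), and Errfi1 and Sgk1 were called as well. The list overlaps others, since Per1, Errfi1, Cdkn1a and Cebpd stand in 1 or more further lists. Leaving out 1 library gave 3 to 6 calls, with 3 without WT 2 and 4 without either C/C library.

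Among 19 tested circadian clock genes, Per1 and Nfil3, another clock repressor, were the 2 called, and the list median was -0.01. Nfil3 rose from 26.1, 28.9 and 27.6 CPM in WT to 66.4 and 73 CPM in C/C (log2 fold change 1.34, SE 0.11, adjusted p = 0.000264). The core clock activators were not called: Arntl stood at 59.5, 55.6 and 60.4 CPM in WT and at 59.2 and 63.5 CPM in C/C, and Clock stood at 71.8, 44.7 and 49.2 CPM in WT and at 45.5 and 43.3 CPM in C/C. Of 16 tested p53 target genes, 4 were called higher, against 1.62% of all tested genes, and 0 lower (median log2 fold change 0.23). Sesn2, a stress sensor that restrains mTORC1, rose from 32.2, 27.9 and 29.8 CPM in WT to 54.8 and 55.6 CPM in C/C (log2 fold change 0.88, SE 0.12, adjusted p = 0.00842). Trp53inp1, a p53-induced nuclear protein, rose from 46.3, 44.4 and 50.4 CPM in WT to 93.8 and 78.9 CPM in C/C (log2 fold change 0.88, SE 0.13, adjusted p = 0.0146). The other 2 were Cdkn1a and Plk3. Mdm2, the ubiquitin ligase that p53 induces against itself, stood at 45.8, 52.2 and 53.5 CPM in WT and at 49 and 48.1 CPM in C/C and overlapped between the groups. The p53 count was 2 without WT 2, C/C 1 or C/C 2.

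Of 20 tested chemokine, cytokine and NF-kB target genes, 3 were called higher, against 1.62% of all tested genes, and 0 lower. The list median log2 fold change was -0.11. Nfkbiz, a nuclear co-regulator of NF-kB, rose from 81.3, 87.1 and 109 CPM in WT to 221 and 180.4 CPM in C/C (log2 fold change 1.12, SE 0.21, adjusted p = 0.0305). Nfkbia, its cytosolic inhibitor, rose from 46.1, 50.5 and 56.2 CPM in WT to 111 and 80.3 CPM in C/C (log2 fold change 0.91, SE 0.17, adjusted p = 0.0289). Cxcl16, a transmembrane chemokine, rose from 98.9, 82.6 and 87.5 CPM in WT to 134 and 129.7 CPM in C/C (log2 fold change 0.55, SE 0.10, adjusted p = 0.0277). Icam1, an adhesion molecule that NF-kB also induces, stood at 585, 640.1 and 570.4 CPM in WT and at 562 and 573 CPM in C/C and was not called. The count was 0 without WT 2, C/C 1 or C/C 2 and 2 without WT 3 or C/+ 2. Among 20 tested genes of alveolar injury states, Krt8 and Sfn were called higher (median log2 fold change 0.62). Krt8, a keratin of simple epithelia that marks a transitional alveolar state, rose from 92.7, 115 and 127 CPM in WT to 219 and 186 CPM in C/C (log2 fold change 0.86, SE 0.15, adjusted p = 0.0242). Sfn, the 14-3-3 sigma protein, rose from 34.5, 36.4 and 42.9 CPM in WT to 82.5 and 70.3 CPM in C/C (log2 fold change 1.01, SE 0.16, adjusted p = 0.0157). Krt18, the partner of Krt8, stood at 158, 243 and 308 CPM in WT and at 428 and 368 CPM in C/C without overlap and was not called (adjusted p = 0.0994). Neither Krt8 nor Sfn was called without WT 2, C/C 1 or C/C 2.

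Mitochondrially encoded genes had 4 of 7 tested members called higher and 0 lower (median log2 fold change 1.08), and the other 6 of the 13 did not pass the filter on low counts. Among those 6, mt-Nd4l, mt-Co2, mt-Co3, mt-Atp6 and mt-Atp8 had 0 reads in every WT and C/C library, and mt-Nd3 had 0 to 3. The counts thus cover the mitochondrial genes only in part, and why was not tested. mt-Co1, a subunit of cytochrome c oxidase, rose from 8489.8, 7255 and 7173 CPM in WT to 13817 and 19002 CPM in C/C (log2 fold change 1.10, SE 0.22, adjusted p = 0.0334). mt-Cytb, cytochrome b, rose from 6768, 6030.4 and 6114 CPM in WT to 11976 and 16359 CPM in C/C (log2 fold change 1.17, SE 0.18, adjusted p = 0.0148). C/C 2 was the higher C/C library for both. The small mitochondrial ribosomal RNA mt-Rnr1 rose from 178, 317 and 294 CPM in WT to 952 and 851 CPM in C/C (log2 fold change 1.78, SE 0.20, adjusted p = 0.00253). The kit selects mRNA, so the level in the libraries is not that of the ribosomal RNA in the cells. The 4 calls were 0 without WT 2 or C/C 2, 1 without WT 3 or C/C 1, 0 in the female libraries alone and 0 with an offset for exon length. Of 77 tested nuclear genes of the respiratory chain, a family chosen after values were seen, 10 were called higher (median log2 fold change 0.35), and of 73 mitochondrial ribosomal protein genes 3 were (median 0.32). Over all tested genes, 1.62% were called higher. Among the 1743 genes of shortest exon length with a mean of 10 CPM or more, 126 were called higher (median 0.25). The part of exon length in the values of these families was not tested.

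The calls moved with the exon length of the gene. Median exon length was 4171 bases over all tested genes, 2516 bases in the genes called higher and 6733 bases in those called lower. Among genes with a mean of 10 CPM or more split by length into 5 bins of 1743 genes, the shortest bin had a median log2 fold change of 0.25 with 126 called higher and 7 lower, and the longest a median of -0.17 with 6 and 52. The library WT 1 deviated from the WT mean in the other direction from both C/C libraries, by -0.11 in the shortest bin and 0.12 in the longest. With an offset that takes the trend with length out of each library, an alternative chosen after seeing the data, 231 genes were called, of which 199 were among the 444 (44.8% of the 444 and 86.1% of the 231). The part of length in the other calls was not tested. Among the 10 most abundant genes called lower, Ptprf, a receptor phosphatase, fell from 1351, 1449 and 1369.8 CPM in WT to 894 and 986 CPM in C/C (log2 fold change -0.56, SE 0.13, adjusted p = 0.0441). Dync1h1, the heavy chain of cytoplasmic dynein, fell from 297, 284 and 285 CPM in WT to 189 and 217 CPM in C/C (log2 fold change -0.51, SE 0.11, adjusted p = 0.0382). The calls of Ptprf and Dync1h1 were lost with the length offset, and those of H6pd, Adcy7 and Snx25 were kept (-0.49, -0.57 and -0.52 on the log2 scale).

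**Figure D4:**
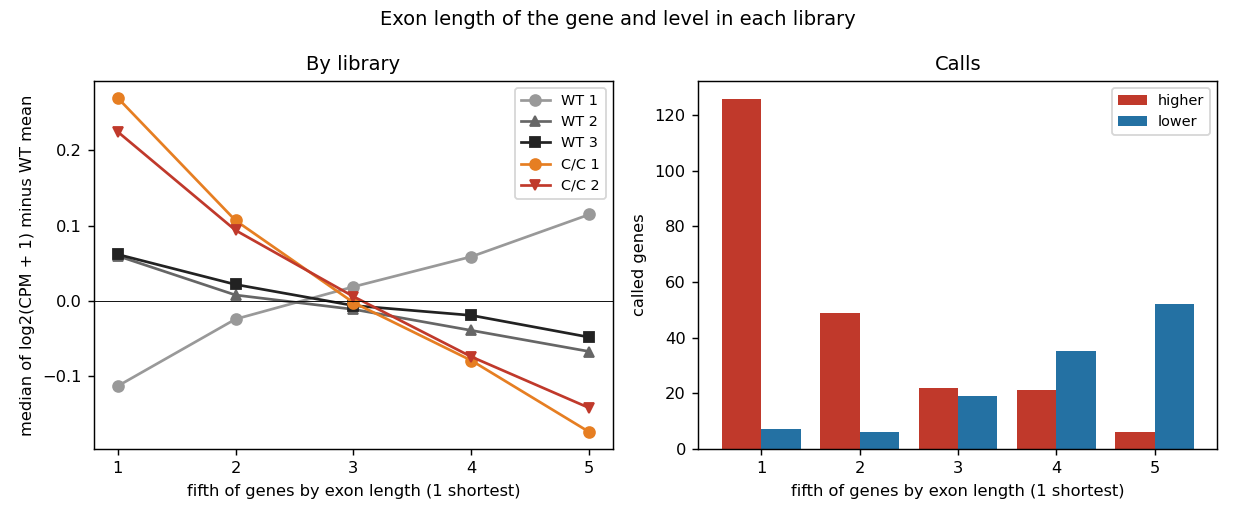
Left, the median over genes of log2(CPM + 1) minus the WT mean (vertical axis) for each library in 5 bins of genes by exon length (horizontal axis, 1743 genes with a mean of 10 CPM or more in each bin, 1 the shortest); right, the number of called genes in each bin. The C/C lines run from 0.27 and 0.23 in the shortest bin to -0.17 and -0.14 in the longest, and the WT 1 line runs the other way.

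Epcam, the gene of the sorting marker, stood at 157, 181 and 177 CPM in WT and at 177 and 184 CPM in C/C, in the same range in both groups. Alveolar type 2 transcripts took a large part of the counts in all 5 libraries. Summed over 18 type 2 markers, WT libraries held 233920 to 266930 CPM and C/C libraries 309840 to 317490 CPM, without overlap. Sftpc took the largest part of each sum. Without overlap, 10 of the 18 lay higher in C/C and 3 lower, Abca3, Slc34a2 and Etv5, against 20.8% and 22.6% of all tested genes. None of the 18 was called by edgeR, 4 were by DESeq2, and 7 had an unadjusted p under 0.05, against 22.1% of all tested genes. Sftpc, surfactant protein C, stood at 104356, 127975 and 130764 CPM in WT and at 166725 and 163513 CPM in C/C (log2 fold change 0.45, SE 0.13, adjusted p = 0.0792). Lyz2, lysozyme, at 29510.3, 33327 and 33942 CPM in WT and at 37253 and 39847 CPM in C/C. Abca3, the lipid pump of the lamellar body, lay lower in both C/C libraries, at 3405, 3198 and 3292 CPM in WT and at 2443 and 2795 CPM in C/C, and was not called (adjusted p = 0.13). Higher shares of type 2 cells and more of these mRNAs per cell cannot be told apart in sorted bulk RNA, and the same holds for every cell type marker here. The 18 tested genes of surfactant processing and the lamellar body had 0 calls by edgeR and 6 by DESeq2, 6 unadjusted p under 0.05 and a median of -0.01. Sterol synthesis (22 tested) and lysosomal genes (28 tested) had 0 calls each by edgeR and 3 each by DESeq2, and 6 and 5 members had an unadjusted p under 0.05. The share of all tested genes with such a p was 22.1%. Of 26 tested genes of fatty acid and phospholipid synthesis, 1 was called, and it was higher, against 1.62% of all tested genes called higher. This gene, Chka, choline kinase, the first step from choline to phosphatidylcholine, rose from 259, 229.6 and 233 CPM in WT to 375 and 331 CPM in C/C (log2 fold change 0.55, SE 0.12, adjusted p = 0.04).

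**Figure D5:**
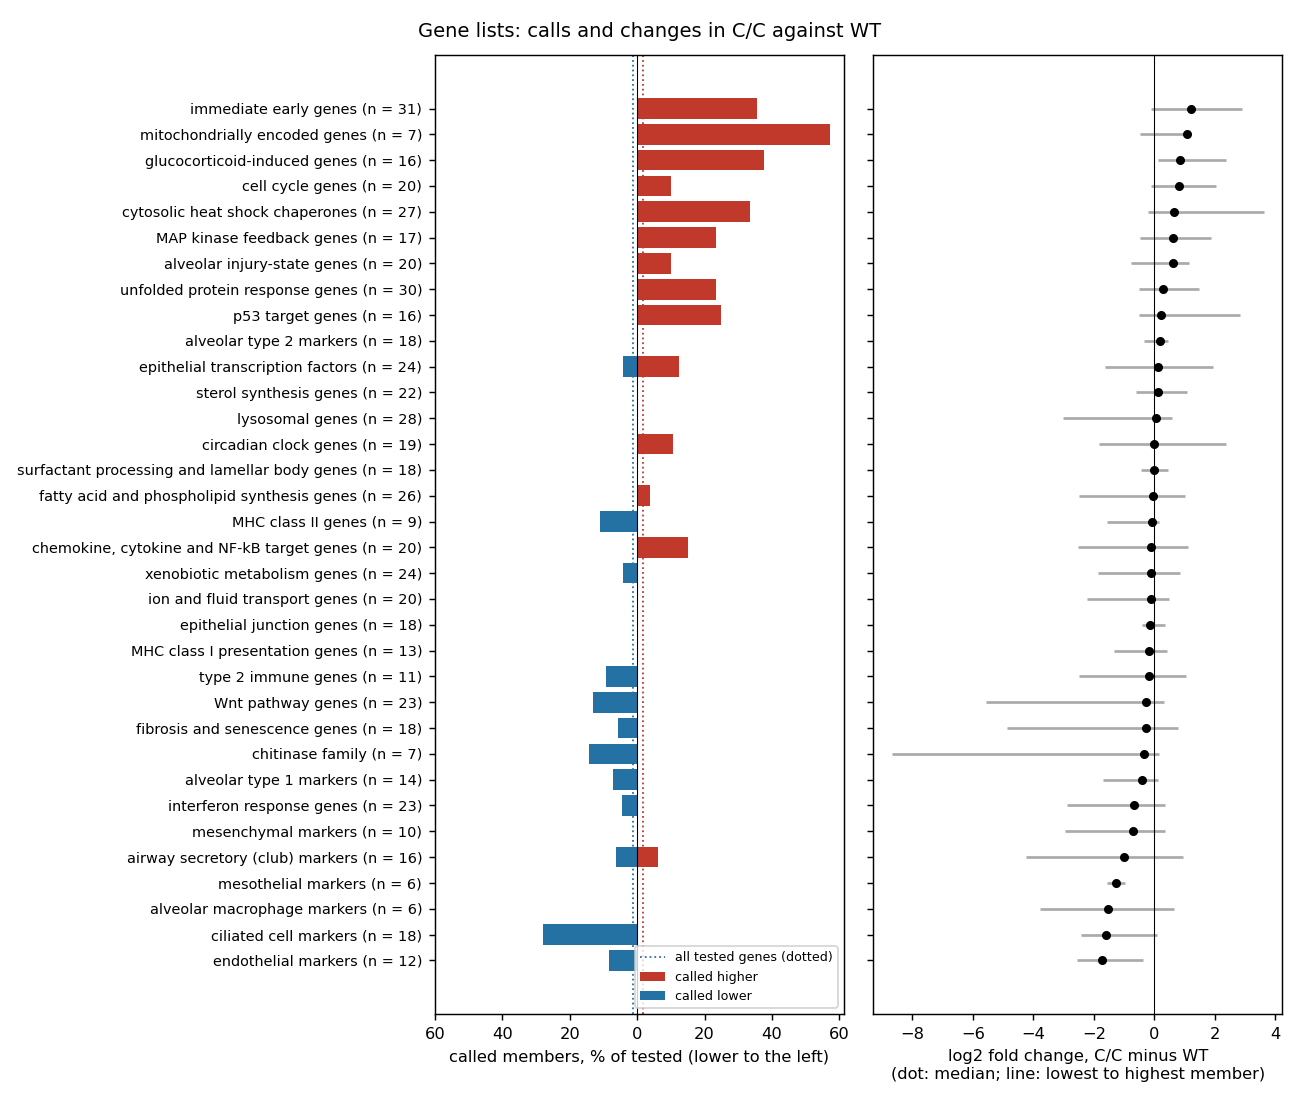
Left, the share of tested members called higher (red, to the right) or lower (blue, to the left) for each gene list with at least 6 tested members, except the leukocyte list, whose members Itgam and Nkg7 have no reads in C/C and so no interpretable fold change, with dotted lines at the shares of all tested genes (1.62% higher and 1.36% lower); right, the median (dot) and range (line) of the members' log2 fold changes. Immediate early, mitochondrially encoded and glucocorticoid-induced genes have the highest medians of the lists drawn, and ciliated and endothelial markers the lowest.

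Of 18 tested markers of ciliated cells, 5 were called lower and 0 higher, against 1.36% of all tested genes called lower. The list median log2 fold change was -1.59, and 14 lay lower in C/C without overlap, as did 22.6% of all tested genes. Foxj1, the transcription factor that drives motile cilia, fell from 16.8, 17.6 and 19.6 CPM in WT to 4.36 and 5.13 CPM in C/C (log2 fold change -1.92, SE 0.41, adjusted p = 0.0392). Dnah9, an axonemal dynein heavy chain, fell from 6.72, 7.54 and 8.67 CPM in WT to 1.72 and 1.17 CPM in C/C (log2 fold change -2.40, SE 0.40, adjusted p = 0.0194). Hydin, a protein of the central pair of the axoneme, fell from 5.74, 4.89 and 5.89 CPM in WT to 1.4 and 1.43 CPM in C/C (log2 fold change -1.96, SE 0.37, adjusted p = 0.03). Ccdc39 and Dnah11, both axonemal, fell as well (-1.82 and -2.43 on the log2 scale). Tppp3 and Dynlrb2, a tubulin-binding protein and a dynein light chain, were not called and overlapped between the groups. Tppp3 stood at 87.3, 136 and 152 CPM in WT and at 144 and 122 CPM in C/C. Of the 14 tested axonemal dynein heavy chains, a family chosen after values were seen, all lay lower in C/C and 6 were called (median -2.23), among them Dnah6 and Dnah3 (adjusted p = 0.0294 and 0.0232). The number of called ciliated markers was 0 without WT 2, C/C 1 or C/C 2, 1 without WT 3, 3 without C/+ 2 and 2 with the length offset.

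Airway secretory markers had 1 of 16 tested called higher and 1 lower, with a list median of -1.004. Without overlap, 6 members lay lower in C/C and 2 higher, 9 had an unadjusted p under 0.05, and DESeq2 called 5 lower and 2 higher. Over all tested genes, 22.6% lay lower without overlap and 20.8% higher, and 22.1% had an unadjusted p under 0.05. edgeR called 1.62% of all tested genes higher and 1.36% lower. Hp, haptoglobin, which type 2 cells also express, rose from 679, 821 and 769 CPM in WT to 1089 and 1122 CPM in C/C (log2 fold change 0.55, SE 0.12, adjusted p = 0.0392). Scgb3a1, a secretoglobin of larger airways, fell from 7.14, 11.9 and 1.88 CPM in WT to 0.597 and 0.209 CPM in C/C (log2 fold change -4.02, SE 0.91, adjusted p = 0.0471). Scgb1a1, the main secretoglobin of club cells, stood at 291, 823 and 290.5 CPM in WT and at 343 and 549 CPM in C/C, with WT 2 the highest, and Cyp2f2, a club cell P450, at 123, 188 and 100.3 CPM in WT and at 107 and 123 CPM in C/C. Both overlapped between the groups. Scgb3a2, another club cell secretoglobin, stood at 9.44, 22 and 9.19 CPM in WT and at 6.01 and 5.21 CPM in C/C (adjusted p = 0.16). Muc5b, a gel-forming mucin, stood at 2.4, 2.75 and 0.948 CPM in WT and at 0.184 and 0.261 CPM in C/C (adjusted p = 0.0609), and Aldh1a1, a retinal dehydrogenase, had a log2 fold change of -1.43 (adjusted p = 0.0609). These 3 lay lower in C/C without overlap, as did Reg3g and Cyp2a5, and were not called. Of 14 tested type 1 markers (median -0.40), 5 lay lower in C/C without overlap and 0 higher, 5 had an unadjusted p under 0.05, and DESeq2 called 4 lower. The shares over all tested genes were 22.6% lower and 20.8% higher without overlap, and 22.1% with such a p. edgeR called 1: Clic5, a chloride channel family protein, fell from 104, 89.2 and 102 CPM in WT to 71.4 and 63.9 CPM in C/C (log2 fold change -0.54, SE 0.13, adjusted p = 0.0488). Pdpn, podoplanin, stood at 5.48, 9.01 and 10.2 CPM in WT and at 2.75 and 3.34 CPM in C/C (adjusted p = 0.072), and Cav1, caveolin, at 36.7, 27.5 and 23.2 CPM in WT and at 16.5 and 16 CPM in C/C (adjusted p = 0.115), both lower in C/C without overlap and not called. Col4a3 and Emp2 also lay lower without overlap. Ager, a receptor of the type 1 cell surface, stood at 1358, 1943 and 2003 CPM in WT and at 1760.1 and 1541 CPM in C/C and overlapped. The calls of Hp, Scgb3a1 and Clic5 were lost without WT 2, C/C 1 or C/C 2, among other libraries. Basal, neuroendocrine and tuft markers had 2, 4 and 2 tested members, with 0 called by edgeR or DESeq2 and 0, 1 and 1 with an unadjusted p under 0.05. Of 24 tested epithelial transcription factors (median 0.13), Elf3, Cebpb and Cebpd were called higher and Sox2, a factor of the airway lineage, lower. Elf3, an epithelial ETS factor, rose from 95, 102 and 102 CPM in WT to 135 and 131 CPM in C/C (log2 fold change 0.42, SE 0.09, adjusted p = 0.0392). Cebpb, a factor of the acute phase, rose from 9.77, 9.06 and 6.97 CPM in WT to 13.9 and 25 CPM in C/C (log2 fold change 1.18, SE 0.27, adjusted p = 0.046). Sox2 stood at 1.34, 1.8 and 2.03 CPM in WT and at 0.528 and 0.573 CPM in C/C (log2 fold change -1.64, SE 0.36, adjusted p = 0.0428). Its call was lost without WT 2, WT 3, C/+ 2 or either C/C library, and that of Elf3 also without WT 1. The call of Cebpb was lost when any library other than C/+ 3 was left out, and that of Cebpd without WT 2 or C/C 2. With the length offset, the calls of Elf3 and Cebpb were lost.

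Markers of cells outside the epithelium were low. Ptprc, the gene of CD45, stood at 1.5, 0.664 and 0.298 CPM in WT and at 0.252 and 0.182 CPM in C/C, and the 7 tested leukocyte markers summed to 6.75 to 12 CPM in WT and 5.16 to 5.58 CPM in C/C. Csf1r, a receptor of the macrophage lineage, had the largest share of that sum in each library, and Itgam and Nkg7, a myeloid integrin and a lymphocyte granule protein, were at 0 in both C/C libraries. None of the leukocyte, macrophage, mesothelial or mesenchymal markers was called in the edgeR test. DESeq2 called 1, 0, 0 and 1 of them, and 2, 3, 0 and 1 had an unadjusted p under 0.05. The macrophage, mesothelial and mesenchymal medians were -1.55, -1.29 and -0.70, and 4 of the 7 leukocyte markers lay lower in C/C without overlap. Over all tested genes, 22.6% lay lower without overlap, edgeR called 1.36% lower and 22.1% had an unadjusted p under 0.05. The 12 endothelial markers summed to 75.8 to 307 CPM in WT and 59.7 to 68.8 CPM in C/C. Their median log2 fold change was -1.73, 10 had an unadjusted p under 0.05, and DESeq2 called 5 lower. Calcrl, a receptor for adrenomedullin, was the 1 called endothelial marker and fell from 39.7, 15.7 and 8.31 CPM in WT to 4.61 and 2.63 CPM in C/C (log2 fold change -2.54, SE 0.58, adjusted p = 0.0463). WT 1 had the highest level of Calcrl, and the call was lost without WT 2, C/+ 1, C/+ 2 or either C/C library, and with the length offset. In the female libraries alone, where WT 1 is the only WT library, 10 endothelial markers were called lower, and 7 were without WT 3. Pecam1, an adhesion molecule of the endothelium, stood at 34.8, 13.8 and 7.14 CPM in WT and at 5.21 and 6.05 CPM in C/C (adjusted p = 0.103), and WT 1 lay apart from the other WT libraries for this list. Red cell transcripts were at or near 0 in WT: Hbb-bs, a beta globin, had 3, 0 and 0 reads in WT and 200 and 89 in C/C, and was not called (adjusted p = 0.0782).

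Of 23 tested Wnt pathway genes, 3 were called lower, against 1.36% of all tested genes, and 0 higher (median log2 fold change -0.28). Wnt3a, a canonical Wnt ligand (chr11:59248033-59290752 on the minus strand), fell from 12.5, 10.3 and 9.3 CPM in WT to 0.207 and 0.235 CPM in C/C (log2 fold change -5.58, SE 0.67, adjusted p = 0.00392), from 217 to 500 reads in WT to 9 in each C/C library. Axin2 and Sp5 are direct targets of the pathway: Axin2 fell from 40.4, 37.5 and 32.6 CPM in WT to 24.2 and 23.8 CPM in C/C (log2 fold change -0.62, SE 0.12, adjusted p = 0.0328) and Sp5 fell from 14.2, 22.5 and 19.1 CPM in WT to 9.16 and 8.52 CPM in C/C (log2 fold change -1.07, SE 0.21, adjusted p = 0.0362). The groups did not overlap in any of the 3. Other readers and feedback genes of the pathway were not called: Nkd1, an inhibitor of Dishevelled, stood at 302, 266 and 236 CPM in WT and at 290.2 and 374 CPM in C/C, Notum, a secreted Wnt deacylase, at 38.5, 39.4 and 40.1 CPM in WT and at 34.5 and 36.3 CPM in C/C. Rnf43, a ligase that removes Frizzled receptors, stood at 60.6, 52.9 and 54.5 CPM in WT and at 45.5 and 44.5 CPM in C/C. Nkd1 overlapped between the groups. The count was 0 without C/C 1 or C/C 2 and 1 without WT 2 or C/+ 2, and Wnt3a was called in each fit except those without a C/C library.

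A second strongly changed gene lay near Wnt3a on chromosome 11. 2610507I01Rik, annotated as a processed transcript (chr11:59199836-59202385), had 615, 315 and 549 reads in WT and 9 and 14 in C/C (log2 fold change -5.58, SE 0.50, adjusted p = 0.000539). The tested genes between them, Mrpl55, 2310033P09Rik and Arf1, were not called. Wnt9a, a further Wnt ligand on the other side of Wnt3a (chr11:59306928-59333552), had 146, 63 and 183 reads in WT and 51 and 60 in C/C and was not called (log2 fold change -1.31, SE 0.33, adjusted p = 0.0632). Rpl26, a protein of the large ribosomal subunit on the same chromosome (chr11:68901583-68906989), had 1439, 1276 and 3860 reads in WT and 34 and 39 in C/C (log2 fold change -5.98, SE 0.63, adjusted p = 0.00173). Gm15772, annotated as a processed pseudogene (chr5:3236431-3236868), had 10, 2 and 4 reads in WT and 1768 and 1158 in C/C. Of the 50-base stretches of Gm15772, 74.3% also occur in Rpl26 transcripts, and 19.3% of those of Rpl26 occur in Gm15772. Reads of these genes can thus be exchanged, and the values of Rpl26 and Gm15772 do not measure either gene alone. The part of such exchange in the fall of Rpl26 was not tested. 2610507I01Rik, Wnt9a and Gm15772 were chosen after their values were seen. Chromosome 11 had 45 of 1254 tested genes called (3.59%), and chromosome 3, which holds Chia1, 21 of 712 (2.95%).

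The lists of MHC class II and of interferon response genes had 1 call each, both lower, against 1.36% of all tested genes. Ciita, the master regulator of MHC class II transcription, fell from 40.3, 51.1 and 45.6 CPM in WT to 21.9 and 21.2 CPM in C/C (log2 fold change -1.08, SE 0.13, adjusted p = 0.00363), the 1 call among 9 tested class II genes (list median -0.09). Its main targets were not called: Cd74, the invariant chain, stood at 4125, 5213 and 5451 CPM in WT and at 5586 and 5275 CPM in C/C. H2-Aa, a class II alpha chain, stood at 951, 1306 and 1367 CPM in WT and at 1307 and 1085 CPM in C/C, and both overlapped between the groups. Oasl2, an interferon-induced protein related to oligoadenylate synthetases, fell from 9.18, 12.9 and 9.32 CPM in WT to 4.36 and 3.91 CPM in C/C (log2 fold change -1.33, SE 0.21, adjusted p = 0.0161), the 1 call among 23 tested interferon response genes (median -0.69). The interferon list held 10 members that lay lower in C/C without overlap, against 22.6% of all tested genes. Of 13 tested class I presentation genes (median -0.17) 0 were called by edgeR and 2 by DESeq2, and 5 had an unadjusted p under 0.05. Over all tested genes, the share with such a p was 22.1%. H2-Q5, H2-Q6 and H2-Q7, class I genes outside that list that were chosen after their values were seen, were called lower. Il4ra, the receptor chain shared by IL-4 and IL-13, fell from 72.9, 76.5 and 67.4 CPM in WT to 44.7 and 50.4 CPM in C/C (log2 fold change -0.60, SE 0.10, adjusted p = 0.0203), the 1 call among 11 tested type 2 immune genes (median -0.19). Tgfb3, a TGF-beta ligand, fell from 98, 87.7 and 93.2 CPM in WT to 65.5 and 65.7 CPM in C/C (log2 fold change -0.50, SE 0.11, adjusted p = 0.046), the 1 call among 18 tested genes of fibrosis and senescence (median -0.28). Cyp2s1, a P450 of epithelia, fell from 35.2, 38.5 and 46.5 CPM in WT to 10.7 and 14.3 CPM in C/C (log2 fold change -1.68, SE 0.33, adjusted p = 0.0334), the 1 call among 24 tested xenobiotic genes (median -0.12). The calls of Ciita, Oasl2, Il4ra, Tgfb3 and Cyp2s1 were lost when either C/C library was left out, and all but that of Ciita without WT 2.

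Of 20 tested cell cycle genes, 2 were called higher, against 1.62% of all tested genes, and 0 lower (median log2 fold change 0.81). Without overlap, 17 lay higher in C/C, against 20.8% of all tested genes. Pcna, the sliding clamp of DNA polymerase, rose from 24.9, 24.2 and 31.1 CPM in WT to 43.8 and 41.1 CPM in C/C (log2 fold change 0.66, SE 0.15, adjusted p = 0.0455). Ccnb2, a mitotic cyclin, rose from 0.776, 0.806 and 0.446 CPM in WT to 2.66 and 2.55 CPM in C/C (log2 fold change 1.98, SE 0.40, adjusted p = 0.0368). Mki67, the proliferation marker Ki-67, stood at 5.4, 3.23 and 2.98 CPM in WT and at 7.66 and 8.05 CPM in C/C. Top2a, a topoisomerase of dividing cells, stood at 4.71, 3.89 and 2.21 CPM in WT and at 9.09 and 5.47 CPM in C/C, and neither was called. The list summed to 112 to 121 CPM in WT and 155 to 171 CPM in C/C, so these transcripts were rare in all 5 libraries. The count was 0 without WT 2, C/C 1 or C/C 2 and in the female libraries alone, and 1 without WT 1, WT 3 or C/+ 2. Ion transport (20 tested) and epithelial junction genes (18 tested) had 0 calls by edgeR and 2 each by DESeq2, and 5 and 4 members had an unadjusted p under 0.05. Such a p was found for 22.1% of all tested genes.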

How the data were processed

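Gene expression in sorted EpCAM+CD45- mouse lung cells was measured from stranded mRNA libraries, with RNA from a column kit and DNase treatment, per the labels' protocols. The authors deposited whole-number read counts per gene of 43432 mouse Ensembl identifiers, without normalisation, for 8 libraries. STAR 2.4.2a, DESeq2 and the build GRCh38, a human build, are named without roles, per the submitters' processing notes, while the identifiers are those of mouse. No source used here gives the counter, strand setting or annotation, so overlapping and near-identical genes may share reads. Symbols, positions and exon lengths came from GENCODE M21 on GRCm38 (42548 identifiers with a symbol, 884 without), and promoters from RefSeq GRCm38.p6.

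Genes were filtered with filterByExpr by group (14906 left), scaled by TMM, and fitted with a mean per group in all 8 libraries with edgeR 4.0.16 (R 4.3.3), so that all groups inform the spread. C/C minus WT was tested with a two-sided quasi-likelihood F test, called at a Benjamini-Hochberg adjusted p under 0.05 over all tested genes. Library totals of 20232091 to 52319957 counts set the counting error, which is largest for genes of few reads. No 2 libraries of a group agreed within sampling noise. Named genes are the chitinase family; called genes with the 15 largest increases and decreases, where the higher group averaged 10 CPM or more without overlap, leaving out predicted and unnamed genes; the 10 most abundant called genes in each direction; and up to 5 called members per list, or 2 where none was called. Other list members named in the text were chosen after their values were seen. The members and lists were chosen with earlier results of these data known. The alternatives tried were the Wald test of DESeq2 1.42.0 and its size factors, other filters, both groups alone, a replicate block, sex, a 1.5-fold test, thinning and leaving out each library. An offset for exon length was added after seeing the data.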

Additional observations from a re-analysis of the deposited data

How the results depend on the processing

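Against 444 called genes (241 higher and 203 lower, 54.3% higher), the DESeq2 Wald test called 1410 (639 and 771, 45.3% higher), no low-count filter 1456 (607 and 849, 41.7%), sex as a covariate 1348 (639 and 709), the test against a 1.5-fold change 21 (16 and 5) and the exon length offset 231 (121 and 110). The female libraries alone, with WT 1 as the lone WT library, gave 625 (231 and 394, 37.0% higher). Leaving out 1 library gave 30 to 782 calls, 26 to 400 of them higher and 4 to 382 lower; a lone library of a group was assumed to vary like the other groups. Near Chia1, against 0 calls, the Wald test and sex as a covariate gave 1, no filter and the female libraries alone 2, and leaving out 1 library 0 to 1. Called members of the gene lists, 72 in all, became 157 (Wald test), 196 (no filter), 143 (sex), 109 (female libraries), 9 (1.5-fold) and 44 (length offset), and 11 to 105 on leaving out 1 library. The 89 called named genes kept their direction in each of these fits, and Chia1 was called lower in each.

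With the replicate number as a block, 176 genes were called (73 higher and 103 lower), 47 of them members of lists and 2 near Chia1. Deviations from the group means of WT and C/C libraries with the same number correlated at -0.09 and -0.03. With 2 C/C libraries these deviations mirror each other, so the correlations cannot show whether libraries with the same number share a batch. No label says that the number pairs libraries. After thinning to the smallest library 346 genes were called, so depth moved the count less than leaving out WT 2 or a C/C library did. The sex of the libraries and the trend with exon length move with the groups, and their part in the calls was not tested.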

Other observations

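Families of interferon-inducible GTPases and of H2-Q class I genes, both chosen after their values were seen, held called decreases; of all tested genes, 1.36% were called lower and 22.6% lay lower without overlap. Of 13 tested Irgm, Gbp and related GTPase genes, which act on vacuoles of intracellular pathogens, 4 were called lower and 0 higher (median log2 fold change -1.26), and 10 lay lower without overlap. Irgm2 stood at 16.8, 18.8 and 16.5 CPM in WT and at 6.65 and 7.82 CPM in C/C (adjusted p = 0.017). Iigp1 stood at 2.22, 3.7 and 1.45 CPM in WT and at 0.39 and 0.547 CPM in C/C (adjusted p = 0.0488). The groups did not overlap for either gene. Of 6 tested H2-Q genes, near-identical class I genes among which reads may be split, 3 were called lower and lay lower without overlap, and 1 of the other 3 had a positive change. H2-Q7 stood at 15.4, 17.1 and 19.6 CPM in WT and at 5.64 and 5.79 CPM in C/C (adjusted p = 0.0159).

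Some of the largest changes stood outside every list. Scn7a, a sodium channel family gene, stood at 21.6, 10.7 and 7.07 CPM in WT and at 2.5 and 1.28 CPM in C/C (log2 fold change -2.78, SE 0.48, adjusted p = 0.0215). Pltp, the phospholipid transfer protein, stood at 32.9, 15.6 and 11.8 CPM in WT and at 5.12 and 4.93 CPM in C/C (adjusted p = 0.0392). Tm4sf1, a membrane protein of the tetraspanin-like family, stood at 13.3, 14.1 and 14.8 CPM in WT and at 4.43 and 4.61 CPM in C/C (log2 fold change -1.64, SE 0.35, adjusted p = 0.0392). WT 1 was the highest library for Scn7a and Pltp, as it was for the endothelial markers, while Tm4sf1 varied little within WT. Nos2, the inducible nitric oxide synthase, fell from 1.58, 4.03 and 2.49 CPM in WT to 0.344 and 0.626 CPM in C/C (adjusted p = 0.0368). Rasd1, a small GTPase induced by glucocorticoids, rose from 6.64, 11 and 11.7 CPM in WT to 25.6 and 28.5 CPM in C/C (adjusted p = 0.0289); Nos2 and Rasd1 were chosen after their values were seen. Of 82 tested cytosolic ribosomal protein genes, 3 were called higher and 1, Rpl26, lower (median log2 fold change 0.30). Over all tested genes, 1.62% were called higher and 1.36% lower, and the shortest bin by exon length had a median of 0.25.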
